A study of Mus musculus with 6 samples.

Results

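Chemokines and their receptors were followed by RNA sequencing in bone cells of mice that received dexamethasone, a synthetic glucocorticoid, and of mice that did not. Genes were taken by symbol in the GENCODE M21 mouse annotation, as those named Ccl, Cxcl, Cx3cl1, Xcl1, Ccr, Ccrl2, Cxcr, Cx3cr1 or Ackr with their numbers, and Cxcl12 was left out by this rule. This gave 41 genes among the 29616 genes of the table, 20 of them ligands and 21 receptors. A further 20 matching symbols of the annotation had no row and were not analysed here, among them Cxcl1, Cxcl5, Cxcl9, Ccl20 and Ccl11. The control group was 3 libraries and the dexamethasone group was 3 libraries, all from C57BL/6 mice, and the labels give the first group only as control. In the study's description, mice received 0.08 µg/g dexamethasone every day over 4 weeks, starting at 8 weeks of age. The labels call the material bone cells, and the study describes Osteocalcin-positive cells sorted from bones whose marrow had been removed. Whether a library held cells of 1 mouse or of several was not stated in the sources used here, so the p-values measure only the spread between these libraries.

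Each library held 72596611 to 89910728 reads assigned to genes. A gene with 3 reads or fewer in a library was treated as at or under the limit that a count of 0 allows, and this floor corresponded to 2.64 to 3.49 normalized counts. Of the 41 genes, 29 were above the floor in at least 1 library, 15 were above it in all 6 libraries, and 12 stayed at or under it in every library. These limits cover counting error only. The test was run where the 6 libraries averaged 10 normalized counts or more, which 16 of the 41 genes reached. The osteoblast markers Col1a1, Col1a2 and Spp1 were among the listed markers with the most reads. By the calling rule given below, 8 of 10 osteoblast markers were lower and 2 were higher with dexamethasone. Of all tested genes, 10.6% were lower and 11.7% higher by that rule. The 2 higher markers were Spp1 and Dmp1, with log2 fold changes of 5.25 and 7.16. Osteocalcin itself (Bglap) had 104 to 139 reads in the control libraries and 10 to 13 reads in the dexamethasone libraries, although both groups were sorted for the protein, and its reads can be shared with near-identical copies. In bulk libraries, fewer cells of a type and less RNA per cell cannot be told apart.

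Chemokines are small secreted proteins, grouped as CC, CXC, XC and CX3C by the spacing of their first cysteines, and they guide the migration of leukocytes through receptors coupled to inhibitory G proteins. Atypical chemokine receptors bind the ligands without this coupling and take them up, which lowers the amount of free ligand. In bone, cells of the osteoblast lineage make chemokines that act on hematopoietic cells, including the precursors of osteoclasts, and glucocorticoids are known to repress many chemokine genes in inflamed tissue.

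With dexamethasone, the membrane-bound ligand Cx3cl1, the monocyte attractants Ccl2 and Ccl9, and the receptor Ccr1 rose, and the scavenging receptor Ackr4 fell. Of these, Ccr1 was at or under 3 reads in every control library, and Cx3cl1 was the gene with the highest level per length in both groups. A gene was called higher or lower when its adjusted p-value was under 0.05 and it moved by 1 or more on the log2 scale, in a limma fit of log2(normalized count + 1) over all 17442 genes tested, with Benjamini-Hochberg adjustment. By this rule 4 of the 16 tested genes were higher, beside 11.7% of all tested genes, and 1 of the 16 was lower, beside 10.6% of all tested genes. Of the 4, Ccr1 reached the mean of 10 only through the dexamethasone libraries. By the adjusted p-value alone, 6 of the 16 were higher, beside 37.2% of all tested genes, and 3 were lower, beside 35.2%. The 3 control values did not overlap the 3 dexamethasone values for 10 of the 16 genes, against 74.7% of all tested genes. The median log2 fold change of the 16 genes was 0.29, with 9 genes above 0 and 7 below, and that of all tested genes was 0.00071. When the libraries were rescaled to the same total, the median of all tested genes became -0.11, and the 5 calls remained.

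**Figure D1:**
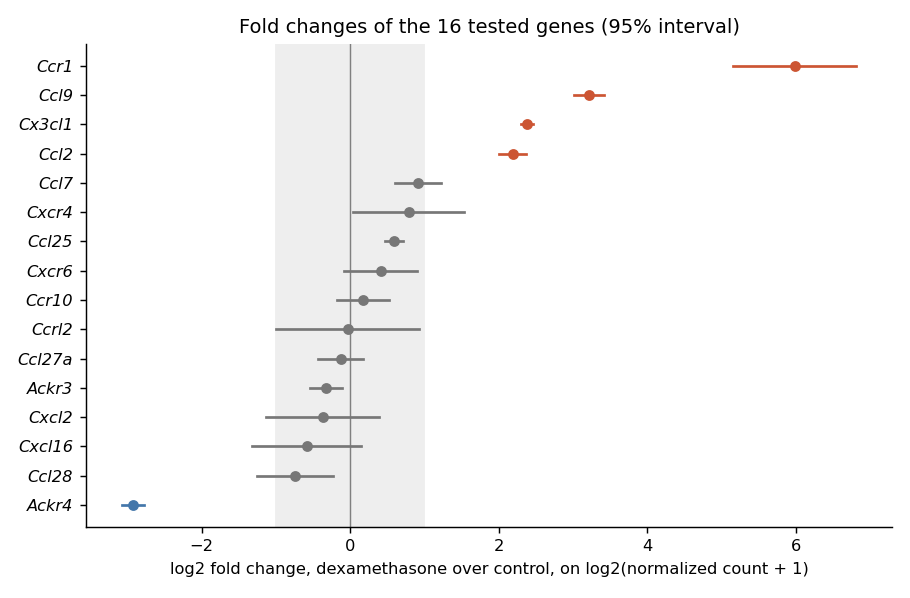
The plot gives the log2 fold change (dexamethasone over control, on log2(normalized count + 1)) of the 16 tested genes as points, with 95% intervals from limma as lines and the range between -1 and 1 shaded. Ccr1, Ccl9, Cx3cl1 and Ccl2 (orange) lie at 5.99, 3.22, 2.38 and 2.19, Ackr4 (blue) lies at -2.92, and the 11 genes that were not called (grey) lie between -0.75 and 0.92.

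The promoters of the called genes are shown. RefSeq promoter sequences of 300 bases ran from 250 bases before to 50 bases after the transcription start on GRCm38.p6. They had an entry for 4 of the 5 called genes, and Ccl2 had none. They are written on the strand of the gene, 5′ to 3′, and capitals mark matches to the NF-kB motif, spelled GGGNNNNNCC and searched on both strands.
Ccl9 (chr11:83578587-83578886, minus strand): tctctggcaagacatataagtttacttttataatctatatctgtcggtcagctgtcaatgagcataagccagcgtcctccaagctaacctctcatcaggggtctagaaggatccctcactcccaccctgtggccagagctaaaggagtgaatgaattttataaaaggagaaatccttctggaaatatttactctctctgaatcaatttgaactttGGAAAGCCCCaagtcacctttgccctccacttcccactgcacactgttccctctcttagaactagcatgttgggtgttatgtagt
Ccr1 (chr9:123968643-123968942, minus strand): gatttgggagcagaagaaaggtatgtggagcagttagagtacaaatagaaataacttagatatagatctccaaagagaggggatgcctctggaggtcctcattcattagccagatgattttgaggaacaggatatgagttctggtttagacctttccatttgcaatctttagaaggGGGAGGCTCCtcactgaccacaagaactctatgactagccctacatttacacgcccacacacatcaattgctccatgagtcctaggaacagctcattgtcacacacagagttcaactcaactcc
Ackr4 (chr9:104126594-104126893, minus strand): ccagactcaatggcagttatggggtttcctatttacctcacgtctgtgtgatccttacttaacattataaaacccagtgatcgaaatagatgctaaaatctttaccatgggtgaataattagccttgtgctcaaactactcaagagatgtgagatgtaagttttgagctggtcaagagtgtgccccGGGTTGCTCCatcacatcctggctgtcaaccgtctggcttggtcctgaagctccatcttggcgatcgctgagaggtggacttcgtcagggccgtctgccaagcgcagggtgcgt
Cx3cl1 (chr8:94771930-94772229, plus strand): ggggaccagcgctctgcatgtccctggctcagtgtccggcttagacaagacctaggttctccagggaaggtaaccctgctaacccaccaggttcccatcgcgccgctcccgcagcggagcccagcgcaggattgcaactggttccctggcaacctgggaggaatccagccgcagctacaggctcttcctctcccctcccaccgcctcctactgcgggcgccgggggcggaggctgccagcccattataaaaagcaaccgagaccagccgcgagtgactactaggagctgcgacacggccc
The motif had 1 match in each of the first 3 sequences, with its first base at -35 in Ccl9, -74 in Ccr1 and -64 in Ackr4 relative to the start. It had none in the Cx3cl1 window. The gene that fell and 2 of the genes that rose therefore shared it. Of 32851 mouse promoters of this length, 50.8% held the motif, and 7 of the 12 tested genes with an entry did. The single-arm glucocorticoid receptor motif AGAACA was in 19.0% of all promoters and in 2 of the 12 tested genes, Ccrl2 and Cxcr4, neither of which was called. The interferon-stimulated element, spelled GAAANNGAAA, was in 3.44% of all promoters and in none of the 12, while the promoter of Cxcl10, an interferon-inducible ligand with few reads here, held it. These matches describe the letters in the windows only, and binding was not measured.

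Cx3cl1 encodes fractalkine, which is made as a membrane protein that holds leukocytes and is released in a soluble form after cleavage. It had the highest level of all 41 genes per length in both groups. Its normalized counts were 2531, 2542 and 2605 in the control libraries and 14105, 12866 and 13002 in the dexamethasone libraries. All 3 dexamethasone libraries were thus far above the control libraries, and the spread within each group was small. The group means were 2559 ± 39.7 (SD, n = 3) and 13324 ± 679.7 (SD, n = 3), which was 5.21-fold and a change of 2.38 ± 0.0390 (SE) on the log2 scale, with an adjusted p-value of 3.87e-25 in limma.

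Among the 13 CC ligands with a row, 6 were tested and 2 were called, both of them higher, beside 11.7% of all tested genes called higher and 10.6% called lower. Ccl9, known as macrophage inflammatory protein-1 gamma, is made by cells of the myeloid lineage and by osteoclasts and acts on Ccr1. It had 83.5, 101 and 107 normalized counts in the control libraries and 841, 936 and 949 in the dexamethasone libraries, and the lowest dexamethasone value stood far above the highest control value. This was 9.35-fold, a change of 3.22 ± 0.0994 (SE) on the log2 scale, with an adjusted p-value of 1.55e-19 in limma. Ccl2, known as monocyte chemoattractant protein-1, draws monocytes through Ccr2. Its normalized counts were 159.7, 138 and 149 in the control libraries and 668, 649 and 723 in the dexamethasone libraries. The groups again did not overlap, and the mean rose from 149 ± 10.9 (SD, n = 3) to 679.8 ± 38.8 (SD, n = 3), a change of 2.19 ± 0.0893 (SE) on the log2 scale, with an adjusted p-value of 5.20e-17 in limma.

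Ccl7, also a monocyte attractant, had 63.3, 64.6 and 66.8 normalized counts in the control libraries and 119, 119.9 and 131 in the dexamethasone libraries. The groups did not overlap, but the 1.90-fold difference stayed under the fold cut-off, at a log2 change of 0.92 with an adjusted p-value of 7.17e-06 in limma. Ccl25, the ligand of Ccr9 known from thymus and small intestine, had 1242, 1068 and 1128 normalized counts in the control libraries and 1613, 1844 and 1717 with dexamethasone. It was higher in every dexamethasone library, by 1.51-fold, a log2 change of 0.59 with an adjusted p-value of 2.15e-09 in limma. In the annotation, 2.74% of the exon bases of Ccl25 are overlapped by Elavl1 on the opposite strand, whose log2 fold change was 0.71, and whether the count used the strand was not given in the sources used here. Ccl28, a ligand of Ccr10 and Ccr3 known from mucosal tissues, moved the other way. Its normalized counts were 47.7, 42.1 and 51.0 in the control libraries and 34.3, 30.5 and 19.8 with dexamethasone, so that every dexamethasone library was lower. Its log2 change of -0.75 with an adjusted p-value of 0.00960 in limma was not called, and without dexamethasone replicate 3, the lowest library, it was -0.52, at an adjusted p-value of 0.0650 in limma. Ccl27a, which attracts skin-homing T cells through Ccr10, ranged from 101 to 138 normalized counts in the control libraries and from 101 to 121 with dexamethasone. These ranges overlapped, and the log2 fold change was -0.13 (95% interval -0.43 to 0.18). Only 66.7% of the 75-base windows of Ccl27a transcripts occur in no other gene, so its count is uncertain.

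Of the CXC ligands followed here, only Cxcl2 and Cxcl16 were tested, and neither was called. Cxcl12 was left out by the rule, and Cxcl1, Cxcl5, Cxcl9, Cxcl11, Cxcl13 and Cxcl14 were not analysed here. Cxcl2, a neutrophil attractant acting on Cxcr2, had 11.7 to 15.8 normalized counts in the control libraries and 9.30 to 12.4 with dexamethasone. The ranges overlapped, with a log2 change of -0.37 (95% interval -1.13 to 0.39) and an adjusted p-value of 0.372 in limma. A change of a size within that interval was neither shown nor excluded. Cxcl16, a membrane-bound ligand that is shed like fractalkine, had 14.7, 18.6 and 24.6 normalized counts in the control libraries and 9.54, 10.9 and 17.4 with dexamethasone, and the groups overlapped. Its log2 fold change was -0.59 (95% interval -1.32 to 0.15, limma adjusted p = 0.142). The gene Zmynd15 on the opposite strand overlaps 18.3% of its exon bases. Both shed ligands were therefore measured, and only for Cx3cl1 did the difference pass the test. Whether they differed from each other in response was not tested.

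**Figure D2:**
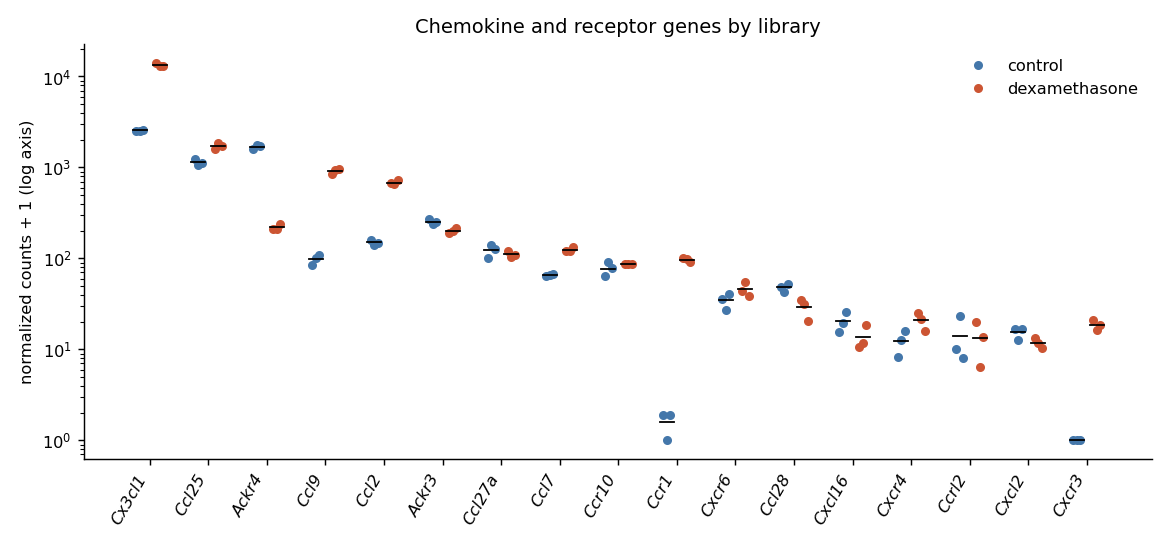
The plot shows normalized counts + 1 on a log axis for the 16 tested genes and Cxcr3, with 1 point per library, control in blue, dexamethasone in orange, and a black line at each group mean. The groups stand clearly apart for Cx3cl1, Ackr4, Ccl9, Ccl2 and Ccr1, and Cxcr3 is at 0 reads in all 3 control libraries, whereas Ccrl2 and Cxcl16 overlap.

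Among the receptors, Ccr1 had the largest change of the 16 tested genes. Its mean was 0.599 normalized counts in controls and 96.3 with dexamethasone, so it passed the filter only through the dexamethasone libraries. It is a receptor of monocytes, macrophages and osteoclast precursors for Ccl9, Ccl7 and other CC ligands. It was counted at 1, 0 and 1 reads in controls, at or under the floor, and 106, 90 and 77 reads after dexamethasone. The gene was thus not detected above the floor in any control library and was detected in each dexamethasone library. The log2 fold change was 5.99 (standard error 0.399, limma adjusted p = 1.10e-12), a value that depends on the added 1. Scaled for library size, the ratio of the summed reads was 157, with an exact 95% counting interval from 43.0 to 1303. The fitted log2 value ranged from 4.18 with a pseudocount of 5 to 7.28 in DESeq2.

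Cxcr3, a receptor of activated T cells for interferon-inducible ligands, showed a similar pattern at a lower level. It had 0 reads in each control library and 21, 14 and 15 reads after dexamethasone. All 3 dexamethasone libraries were above the floor, and the gene was at least 6.33-fold higher with dexamethasone, against a floor of 3 reads per control library. It had a mean under 10 normalized counts and was not tested in the main comparison. Without the filter on low values, 7 of the 41 genes were called higher, beside 8.88% of all 29616 genes, and 5 were called lower, beside 9.10%. Cxcr3 was among those called higher, with a limma adjusted p-value of 3.68e-07. The others that this setting added were Ccl17 and Ccr3 among the higher genes, and Ccl5, Ccr7, Ccr9 and Cxcr5 among the lower genes, and none of them had more than 24 reads in a library.

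The remaining tested receptors were not called. Cxcr4, which retains hematopoietic cells in the marrow, had 7.34, 11.7 and 14.9 normalized counts in the control libraries and 23.8, 20.7 and 15.1 with dexamethasone. The groups did not overlap, yet the log2 fold change of 0.79 (95% interval 0.04 to 1.54) missed the threshold with a limma adjusted p of 0.0556, and this p ranged from 0.0326 to 0.222 over the alternatives. Cxcr6, the receptor of Cxcl16 on T cells and natural killer cells, had 34.9, 26.4 and 39.5 normalized counts in the control libraries and 42.9, 54.5 and 37.2 with dexamethasone. These values overlapped, with a log2 change of 0.41 and an adjusted p-value of 0.130 in limma. Ccr10 ranged from 62.4 to 90.0 normalized counts in the control libraries and from 84.9 to 86.1 with dexamethasone, a log2 fold change of 0.17 (95% interval -0.17 to 0.52). Ccrl2, a receptor-like protein that binds chemerin, spread widely in both groups, from 7.03 to 22.5 and from 5.45 to 19.1 normalized counts, and its log2 fold change of -0.04 had a 95% interval from -1.0 to 0.93.

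Among the atypical receptors, Ackr4 fell and Ackr3 was lower by less than the fold cut-off. Ackr4 takes up Ccl19, Ccl21 and Ccl25. Its normalized counts were 1604, 1744 and 1699.5 in the control libraries and 212, 211 and 239.5 in the dexamethasone libraries. Every dexamethasone library was far below every control library, and the mean fell from 1682 ± 71.5 (SD, n = 3) to 221 ± 16.1 (SD, n = 3). This was 7.62-fold lower, a change of -2.92 ± 0.0695 (SE) on the log2 scale, with an adjusted p-value of 6.62e-22 in limma. Acad11 on the opposite strand overlaps 8.90% of the exon bases of Ackr4 in the annotation, and its log2 fold change was -0.86, smaller in size than that of Ackr4. Ackr3, which takes up the ligand of Cxcr4, had 268, 237 and 249 normalized counts in the control libraries and 187, 198 and 216 with dexamethasone. It was lower in each dexamethasone library, at a log2 change of -0.32 with an adjusted p-value of 0.00709 in limma, which is under the fold cut-off. Ackr1 and Ackr2 were at or under 3 reads in every library.

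Ccr9, the signalling receptor of Ccl25 on thymocytes and gut T cells, was counted at 20, 12 and 12 reads in controls and 3, 3 and 8 reads with dexamethasone. Its mean was just under 10 normalized counts, and it was called lower when dexamethasone replicate 1 or 2 was left out, which raised the mean past 10. Other genes overlap 19.0% of its exon bases on the opposite strand and 2.62% on the same strand. Ccr7, which guides dendritic cells and T cells into lymph nodes, was counted at 12, 24 and 6 reads in controls and 3 or 4 reads with dexamethasone. Ccl5, a T cell product, was counted at 10, 4 and 9 reads in controls and 1, 0 and 3 with dexamethasone. Ccl17, a ligand of Ccr4, had 1 read in each control library and 5, 5 and 4 reads with dexamethasone. Scaled for library size, the ratio was 5.37 with an exact 95% counting interval from 1.5 to 29.1. In each of these 4 genes the reads of the groups did not overlap, but at most 24 reads lay behind any value. The share of all genes under a mean of 10 without overlap was not computed, so no result is drawn from this. Another 7 genes above the floor in at least 1 library had 0 to 15 reads in any library, namely Ccl6, Cx3cr1, Cxcl17, Ccr4, Cxcl10, Cxcr5 and Ccl4. Of these, the normalized counts of the groups did not overlap for Cxcr5 and Cx3cr1, though the reads of Cx3cr1 overlapped. No result is drawn from this either. Cxcr5 had 3, 3 and 8 reads in controls and 2, 0 and 0 with dexamethasone. The 12 genes at or under the floor in every library were Ccl3, Ccl8, Ccl22, Cxcl3, Cxcl15, Ccr2, Ccr3, Ccr6, Cxcr1, Cxcr2, Ackr1 and Ackr2. Among them, the normalized counts of the groups did not overlap for Ccr3, with 0 reads in each control library and 2 in each dexamethasone library, nor for Ccl22 and Cxcr2. For Ccl22 and Cxcr2 the highest control and the lowest dexamethasone library had equal reads. The same limit holds, and no result is drawn. Without the filter, Ccr3 was called higher with an adjusted p-value of 0.0254 in limma, but as both groups were at or under the floor no fold is given. No other gene of these 12 was called in that setting.

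To compare levels between genes, normalized counts were divided by the length of the exons in kilobases. In the control libraries the order was Cx3cl1 at 651 ± 10.1 (SD, n = 3) normalized counts per kb, Ackr4 at 313, Ccl25 at 154, Ccl2 at 131, Ccl7 at 81.0, Ackr3 at 75, Ccl27a at 51.0, Ccr10 at 44.2 and Ccl9 at 31.9. The libraries of Ccl7 and Ackr3 overlapped, as did those of Ccl27a and Ccr10, so the order within these pairs was not resolved. With dexamethasone the order was Cx3cl1 at 3390.4 ± 173.0 (SD, n = 3), Ccl2 at 597, Ccl9 at 298, Ccl25 at 232 and Ccl7 at 154, and then Ackr3 at 59.9, Ccr10 at 49.4, Ccl27a at 46.4, Ackr4 at 41.1 and Ccr1 at 34.0. The 5 ligands at the top were followed by receptors and Ccl27a, and the libraries of Ccl27a overlapped those of both Ccr10 and Ackr4. Ackr4 thus moved from the second place to the ninth, and Ccl9 from the ninth to the third. Summed over the 20 ligands, the level per kb was 1129 to 1165 in the control libraries and 4627 to 4911 with dexamethasone. Cx3cl1 made up 55.3% to 57.3% of this sum in the control libraries and 69.8% to 73.1% with dexamethasone. Summed over the 21 receptors, it was 453 to 493 and 242 to 243, of which Ackr4 was 65.7% to 66.4% and 16.2% to 18.4%. These sums describe the genes with a row only, and Cxcl12, which the rule left out, is not part of the ligand sum.

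The ligands that rose were next set beside their receptors, and only some of these receptors were measured above the floor. Cx3cr1, the receptor of fractalkine on monocytes and microglia, was counted at 4, 3 and 5 reads in controls and 7, 8 and 4 reads with dexamethasone. The ligand was at 651 and 3390.4 normalized counts per kb in the groups and its receptor at 0.814 and 1.48. For Ccl2, the receptor Ccr2 had 2 reads at most in any library, and the receptor was not detectable at this depth in libraries in which the ligand rose. Of the ligand and receptor pairs examined, only Ccl9 and Ccr1 were both called higher, from 31.9 to 298 and from 0.211 to 34.0 normalized counts per kb. Ccl25 was higher while Ackr4, the receptor that removes it, fell from 313 to 41.1 normalized counts per kb. Ccr9, through which Ccl25 signals, was at 1.32 and 0.501 normalized counts per kb and was not tested at the mean of 10. For Ccr10 and its ligands Ccl27a and Ccl28, and for Cxcr6 and its ligand Cxcl16, the receptor was not called and neither were the ligands. Cxcr3 had no listed ligand with more than 6 reads, since Cxcl10 had 1 to 6 reads in each library and Cxcl9 and Cxcl11 were not analysed here. Protein was not measured.

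**Figure D3:**
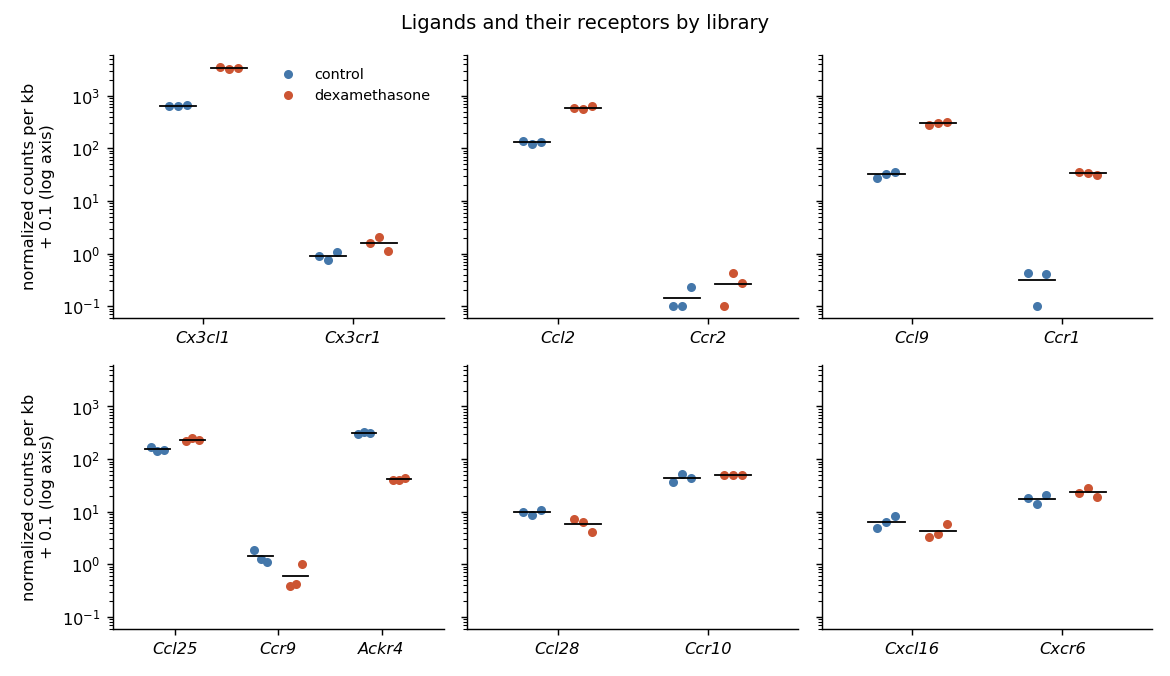
Each panel shows a ligand and its receptor or receptors as normalized counts per kb of exon + 0.1 on a log axis, with 1 point per library, control in blue, dexamethasone in orange, and black lines at the group means. Ccl9 and Ccr1 are both higher with dexamethasone, Ccl2 and Cx3cl1 are higher while Ccr2 and Cx3cr1 stay under 3 normalized counts per kb, and Ccl25 is higher while Ackr4 is lower.

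Many chemokine genes lie in clusters, and most neighbours of the called genes had too few reads to be tested at the mean of 10. On chromosome 11 in the annotation, Ccl2 is followed among the genes with a row by Ccl7, which was higher but under the fold cut-off, and by Ccl8, which had at most 3 reads. Ccl9 lies between Ccl5 and Ccl6 in this order, followed by Ccl3 and Ccl4, and all 4 had at most 15 reads in any library. The neighbouring Ccl6 was counted at 12, 15 and 5 reads in controls and 4, 2 and 7 with dexamethasone. On chromosome 9, Ccr1 lies between Cxcr6 and Ccr3, followed by Ccr2, and both Ccr3 and Ccr2 had at most 2 reads in any library. Cx3cl1 lies on chromosome 8 between Ccl22, which had at most 2 reads, and Ccl17. Without the filter, Ccr3 beside Ccr1 and Ccl17 beside Cx3cl1 were called higher, with adjusted p-values of 0.0254 and 0.0179 in limma, and Ccl5 beside Ccl9 was called lower. Whether neighbours differed from each other in response was not tested.

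Genes that act upstream and downstream of chemokines were listed by function. All 18 receptors and adaptors of the cytokine and Toll-like pathways that induce chemokines were tested, with a median log2 fold change of 0.0042. Of these, 4 were called higher, beside 11.7% of all tested genes, and none was called lower, beside 10.6%. By the adjusted p-value alone 7 of the 18 were higher and 7 lower, shares near the 37.2% and 35.2% of all tested genes. Il1r1, the interleukin-1 receptor, rose from a mean of 2695 to one of 7792 normalized counts, a log2 change of 1.53 with an adjusted p-value of 6.23e-22 in limma. The other called genes were Il1rap, which encodes the partner chain of this receptor, Tnfrsf1b, a receptor of tumor necrosis factor, and Il17ra, a receptor chain for interleukin-17, with log2 fold changes of 2.82, 1.41 and 1.09. Il1rap falls outside the naming rule and was named after its value was seen. The interferon receptor chains Ifngr1, Ifngr2, Ifnar1 and Ifnar2, also named after their values were seen, had log2 fold changes of 0.10, -0.54, -0.03 and -0.38.

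Of 32 genes that relay or end receptor signals, 23 were tested, with a median log2 fold change of 0.42. Of these 23, 4 were called higher, beside 11.7% of all tested genes, and 1 was called lower, beside 10.6%. By the adjusted p-value alone 14 were higher and 4 lower, beside 37.2% and 35.2% of all tested genes. Pak1, a kinase downstream of Rac, rose from 3958 to 10137 normalized counts and was called higher. Grk5, a kinase that phosphorylates active receptors, and Arrb2, the arrestin that then binds them, had log2 fold changes of 1.57 and 1.04. Pik3r5, the other gene called higher, was counted at 2, 0 and 1 reads in controls and 24, 18 and 17 with dexamethasone. It reached the mean of 10 only through the dexamethasone libraries, and it falls outside the naming rule. Elmo1, a partner of Dock proteins in Rac activation, was counted at 109, 110 and 120 reads in controls and 9, 21 and 8 reads with dexamethasone, a log2 fold change of -2.98. Of the 10 genes that trim or shed chemokines, 8 were tested, with a median log2 fold change of -0.58. Of these 8, 1 was called higher and 4 lower, beside the same 11.7% and 10.6% of all tested genes. By the adjusted p-value alone 3 were higher and 4 lower, beside 37.2% and 35.2%. Mmp2, Mmp14 and Anpep, proteases able to cut chemokines, had log2 fold changes of -1.02, -1.24 and -1.45, and Mmp13 had one of 1.45. Mmp9, also outside the naming rule, was called lower, with means of 20.6 normalized counts in controls and 9.05 with dexamethasone. It reached the mean of 10 only through the control libraries. Adam10 and Adam17, which cleave fractalkine and Cxcl16 from the membrane and were named after their values were seen, had log2 fold changes of 0.10 and 0.33, under the fold cut-off.

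Markers of blood cells were examined beside Ccr1 and Cxcr3, which are known from leukocytes. The counts of called markers stand beside 11.7% of all tested genes called higher and 10.6% called lower. By the adjusted p-value alone these shares were 37.2% and 35.2%. Of 7 pan-hematopoietic markers, 4 were tested, 2 were called higher and 2 lower, and their summed level was 95.8 to 132 normalized counts in the control libraries and 777 to 830.2 with dexamethasone. Itgb2, the beta chain of leukocyte integrins, had a mean of 54.6 ± 10.2 (SD, n = 3) in controls and 503 ± 26.2 (SD, n = 3) with dexamethasone. Cd53, a leukocyte tetraspanin, rose from 15.7 ± 3.99 (SD, n = 3) to 283 ± 24.8 (SD, n = 3). Coro1a and Laptm5 went the other way, from 20.4 to 6.79 and from 19.2 to 6.41, and reached the mean of 10 only through the control libraries. Ptprc, which encodes CD45 on nearly all leukocytes, was counted at 3, 3 and 2 reads in controls and 3, 5 and 5 reads with dexamethasone, Ikzf1 had 0 to 6 reads, and Vav1 had 2 reads at most. The list was thus mixed, with Itgb2 and Cd53 higher together with Ccr1, Coro1a and Laptm5 lower, and the other 3 at few reads in both groups. Of the 8 macrophage markers, 5 had a row, 3 were called higher and 1 lower, and the summed level was 1465 to 1486 in the control libraries and 1477 to 1667 with dexamethasone. Of the 3, Mrc1 was counted at 4, 5 and 1 reads in controls and 26, 12 and 12 with dexamethasone. It reached the mean of 10 only through the dexamethasone libraries. Cd68 rose from 173 to 596 and Cd14 from 257 to 597 normalized counts, while Lyz2 fell from 996 to 351, and Csf1r had 40.4 to 54.5 in the control libraries and 27.9 to 28.6 with dexamethasone. The 4 T and natural killer markers with a row had at most 7 reads in any library and Cd3d had none with dexamethasone. Of the other lists, no neutrophil marker of 4 tested was called, with log2 changes of 0.09, -0.12 and 0.87 for S100a9, Camp and S100a8. By the adjusted p-value alone 1 of these 4 was higher, S100a8, at 8.74e-08 in limma, and none was lower. No endothelial marker of 4 tested was called. By the adjusted p-value alone 3 were higher, Vwf, Kdr and Pecam1, with log2 changes of 0.76, 0.25 and 0.74, and Tek had one of -0.75. Cdh5, which encodes VE-cadherin, was at or under the floor in every library, with 2, 0 and 0 reads in controls and 2, 2 and 1 with dexamethasone. Emcn was not analysed here. The B cell marker tested, Pax5, was called lower with a log2 change of -2.30, and it reached the mean of 10 only through the control libraries. The erythroid marker tested, Alas2, had a log2 change of -0.09. The part of these cells in the levels of Ccr1 and Cxcr3 was not tested.

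**Figure D4:**
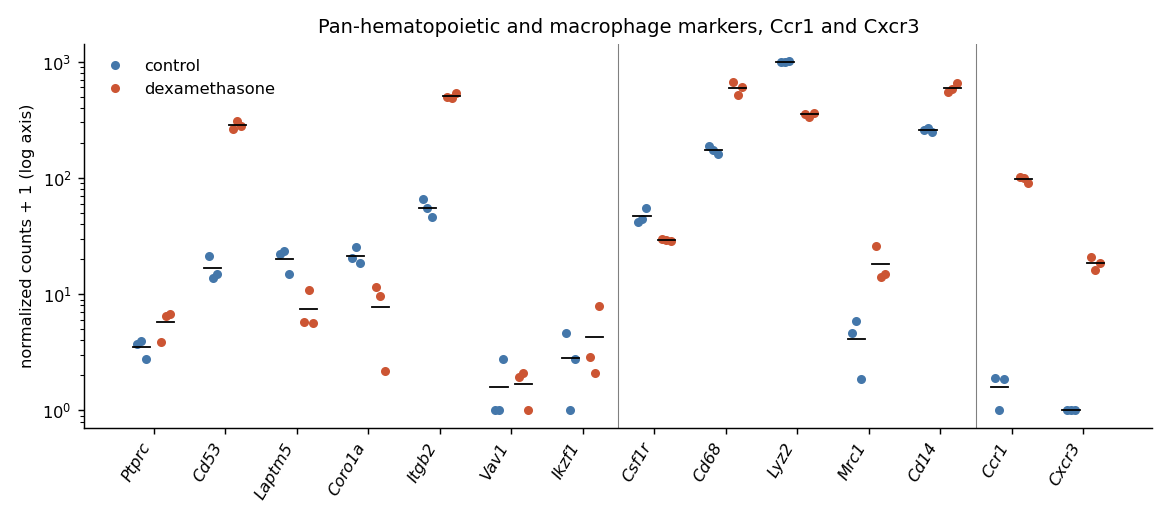
The plot shows normalized counts + 1 on a log axis for the 7 pan-hematopoietic markers (left), the 5 macrophage markers with a row (middle) and Ccr1 and Cxcr3 (right), with 1 point per library, control in blue, dexamethasone in orange, and a black line at each group mean. Cd53 and Itgb2 are higher with dexamethasone together with Ccr1, whereas Ptprc, Vav1 and Ikzf1 stay under 10 in every library and Laptm5, Coro1a and Lyz2 are lower.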

How the data were processed

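RNA was taken from bone cells of 3 control and 3 dexamethasone libraries, built with a KAPA Stranded mRNA-Seq Kit. The authors aligned and counted reads per gene with STAR (2.7.10a) and normalized with DESeq2 (1.36.0). The submitters' processing notes name GRCm39, and the annotation release and the strand setting were not given in the sources used here. The deposited signal is therefore a count divided by a size factor per library. Dividing each library by its value per read gave whole reads (within 0.001) for 100% of values.

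Symbols, exon lengths and overlaps came from GENCODE M21. The members and gene lists were chosen with earlier results of these data known. With 1 added, values were put on the log2 scale and tested by limma (3.58.1, R 4.3.3) in genes with a mean of at least 10, with Benjamini-Hochberg adjustment. The recovered reads were also tested with DESeq2 (1.42.0) and edgeR (4.0.16). The limma, edgeR and DESeq2 fits were tested on simulated data, and the other steps were not. Members with a mean of at least 10 were named with their values, other members above 3 reads with their reads, and of the further lists the called genes with the highest mean, at most 3 in each direction, and the 3 markers with the highest mean. Replicate libraries differed by more than sampling noise (chi-square per degree of freedom 3.27 to 26.1), so none was counted as a copy. Chromosome positions of promoters refer to GRCm38.p6, not to the build of the counts. The values of 1 gene counted among the members are not reported here.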

Additional observations from a re-analysis of the deposited data

How the results depend on the processing

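Over 16 alternative settings, 15 of the 16 tested genes kept their direction where tested, and the calls of Ccl2, Ccl9, Cx3cl1 and Ackr4 were made in each. Settings that changed only the filter, the variance model or the replicate block left the log2 fold change the same by construction. Direction could not change in those. Ccr1 was called in each setting that tested it, but it reached the filter only through its dexamethasone libraries. At a mean of at least 50 normalized counts, 2536 genes were called rather than 3894, and 9 of the genes followed here were left, 3 called higher and 1 lower. Without a filter, 7 were called higher and 5 lower. The number called lower was 1 to 2 when each library was left out, with Ccr9 added without dexamethasone replicate 1 or 2, and the number called higher was 4 to 5. The 5th was Cxcr3, which has no control reads, so that leaving out any control library by construction raised its mean past the filter, and this says nothing of its stability. Ccr9 likewise passed the filter only when a low dexamethasone library was left out. Ccl7 reached a log2 fold change of 1.02 and was called after quantile normalization. Ccrl2, which was not called, changed sign to 0.0852 after quantile normalization, and it ranged from -0.40 to 0.42 when each library was left out. The cause of the changes in Ccl7 and Ccrl2 was not tested.

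Same-numbered control and dexamethasone libraries had deviations from their group means that correlated at -0.0999, -0.105 and -0.0199 across genes, so the numbers were not taken as pairs. With the replicate block 3897 genes were called, 4 of the genes followed here higher and 1 lower, and no call among these changed. Counts of a few reads limit the genes under a mean of 10.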
